A study of Mus musculus with 10 samples.

Results

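The cytosolic ribosomal protein genes are the 82 protein-coding genes whose symbols follow the Rpl and Rps naming of the ribosome, out of 55573 genes in the table. They were picked by symbol and annotation, and no measured value entered the choice. There are 48 genes of the large subunit, 3 of its acidic stalk (Rplp0, Rplp1 and Rplp2) and 31 of the small subunit. A further 6 rows with such a symbol are not annotated as protein-coding and were left out, as were 300 pseudogene rows marked "-ps". The cells were bone marrow–derived macrophages (BMDMs), cultured with the growth factor MCSF. They came from female wild-type C57BL/6 mice and were treated for 4 hours. The 5 groups were vehicle, 5 μg polyU, PNPi+dG/rG, the same with polyU (PNPi+dG/rG+polyU) and 1 ng/mL R848, each with 2 libraries labelled as biological replicates. PolyU is a uridine-only ssRNA given with the lipid carrier DOTAP, PNPi+dG/rG is 1 μM of the purine nucleoside phosphorylase inhibitor ulodesine with 5 μM deoxyguanosine and 5 μM guanosine, and R848 is a small-molecule TLR7 agonist. The design asks how PNP inhibition and ssRNA, alone and together, change the transcriptome of BMDMs, with R848 as a reference TLR7 ligand.

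Values are CPM, the reads on a gene brought to one common total per library. Depth, worked out from the smallest step between low values, ran from about 14128123 to 38392613 reads on genes, and 3 reads, taken as the least that can be detected, are worth from 0.0781 to 0.212 CPM, by counting error only. The 10 macrophage markers, such as Cd68, Csf1r and Lyz2, summed to between 15550 and 18570 CPM in every library. T cell markers stayed under 7.36 CPM and B cell markers under 0.625 CPM. Nothing in the labels says whether the libraries of a group came from separate cultures, so p-values measure the spread between these libraries only. These are bulk samples, so less RNA per cell and fewer cells with the RNA cannot be told apart.

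The cytosolic ribosome has a small subunit that reads the mRNA and a large subunit that joins amino acids, and each of its proteins is needed in about the same number of copies. Their mRNAs are among the most abundant in growing cells, and most start with a C and a run of pyrimidines, the 5′ terminal oligopyrimidine (TOP) motif. The protein LARP1 binds that start and holds TOP mRNAs back from translation when the kinase mTOR is inactive. In macrophages, ligands of Toll-like receptors change both mTOR activity and the translation of these mRNAs, but RNA-seq measures only the amount of mRNA.

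Of the 82 genes, 54 had a mean of at least 10 CPM over the 10 libraries, 18 had between 1 and 10 CPM, and 10 had under 1 CPM. The highest was Rpl4, which lines the exit tunnel for the new protein, with a mean of 821.6 CPM. It lies on chromosome 9 (64173375-64178666, plus strand, GRCm38). Rpl8, at 604 CPM, and Rps3, which sits where mRNA enters the small subunit, at 559.8 CPM, came next. The 10 most abundant genes held 60.1% of the summed CPM, and the median gene had 21.2 CPM. At the other end, Rpl10l, a testis paralog, had 0.00306 CPM and was seen in 1 R848 library alone. Rpl3l, a striated-muscle paralog, stayed between 0 and 0.112 CPM.

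These levels are not stoichiometric, and they moved with how much of each gene's sequence is its own. Every stretch of 50 bases, the read length, in the transcripts of each gene was searched for in the transcripts of all other genes (GENCODE M21). A stretch was shared with an annotated pseudogene in 79 of the 82 genes, and Rpl7a shared stretches with 121 pseudogenes. The median gene had 62.9% of its stretches to itself, and the lowest share was 4.91%, in Rpl35. Per kb of transcript, the median level was 4.59 CPM in the 11 genes with under 25% unique stretches, 24.96 CPM in the 50 genes between 25% and 75%, and 63.6 CPM in the 21 genes over 75%. Rps6, the substrate of S6 kinase, had 15.4% unique stretches and between 0.505 and 1.34 CPM, and Rpl24 had 18.3% and between 0.0703 and 0.367 CPM. A low share did not always go with a low level, since Rps18 had 20.6% unique stretches and 90.3 CPM per kb. Low values also occurred with much unique sequence, as in Rpl38, with 72.6% and between 0.159 and 0.852 CPM. Across the 82 genes, Spearman's rho between the unique share and the level per kb was 0.31, a description over genes that share libraries and sequence. How the authors' counting treated reads that map to several places is not given in the sources used here, and its part in these levels was not tested. Differences in level between genes are therefore given as a description, and tests compare each gene with itself between groups.

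**Figure D1:**
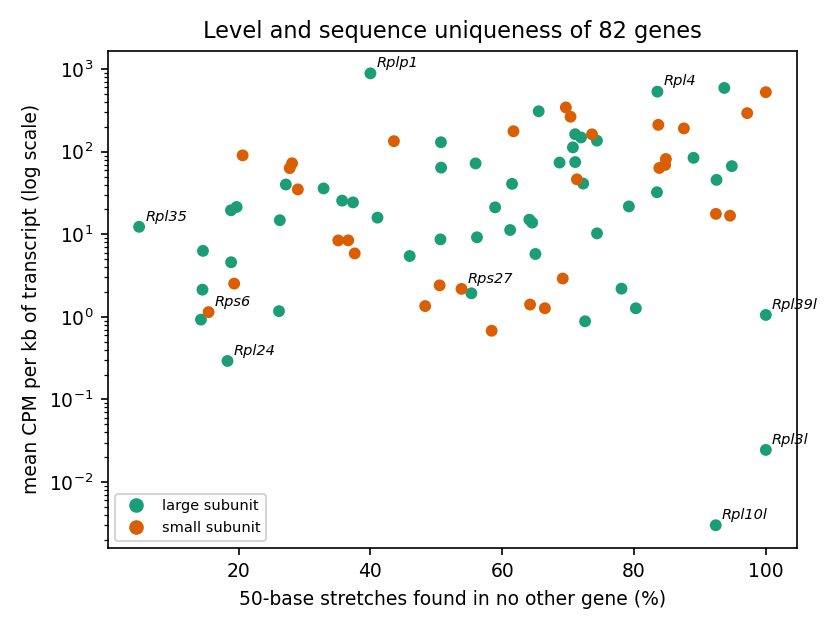
Mean level of each of the 82 genes in CPM per kb of its longest transcript (log scale) against the share of its 50-base stretches found in no other gene (%), with large-subunit genes in green and small-subunit genes in orange. Genes with little sequence of their own, such as Rpl35, Rps6 and Rpl24, mostly lie low, with Rps18 (90.3 CPM per kb) as an exception, and the genes over 75% have a median of 63.6 CPM per kb but include Rpl3l and Rpl10l near 0.

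RefSeq promoters of GRCm38.p6 were available for 62 of the 82 genes. A C at the annotated start followed by pyrimidines, in a run of at least 5, was found in 13 of the 62 (20.97%) and in 3.01% of all 27025 genes with a promoter. The window from 10 bases before to 20 bases from the start is printed for 6 genes that show the range from long to short runs and whose values are described here, 5′ to 3′ on the gene's strand, with the run in capitals.
Rpl15 (chr14:18270967-18270996, minus): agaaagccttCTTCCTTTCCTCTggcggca
Rpl35 (chr2:39005112-39005141, minus): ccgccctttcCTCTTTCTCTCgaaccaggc
Rps18 (chr17:33955646-33955675, minus): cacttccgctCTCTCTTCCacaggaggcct
Rps6 (chr4:86857348-86857377, minus): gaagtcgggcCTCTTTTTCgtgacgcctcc
Rpl35a (chr16:33056472-33056501, plus): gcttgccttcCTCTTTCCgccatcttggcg
Rplp2 (chr7:141447641-141447670, plus): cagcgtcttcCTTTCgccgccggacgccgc
The run is 13 bases in Rpl15 and 5 bases in Rplp2. Annotated starts are often a few bases from the start that cells use, so a missing run says only that these letters are not at this position. Between 250 bases before and 50 bases after the start, on either strand, CCGGAAGT was present in 11 of the 62 promoters (17.7%) and in 4.31% of all, AAGATGGC in 6 (9.68%) and in 3.19%, and CTCTTTC in 18 (29.03%) and in 9.28%. TATAA was present in 18 (29.03%) and in 28.0% of all promoters. CTCTTTC can lie inside a pyrimidine run, and a match is a description of the sequence only.

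Summed over the 82 genes, the share of a library's reads lay between 0.495% and 0.863%. That is little for genes whose mRNAs are usually among the most abundant of a cultured cell, and the sums hold only the reads that the authors' counting gave to these genes. Their summed level was 6129 and 6418 CPM in the vehicle libraries and 6656 and 6311 CPM in the PNPi+dG/rG libraries. It reached 8024 and 8627 CPM with polyU, 7541 and 7745 CPM when both agents were given, and 4946 and 5257 CPM with R848. The libraries of polyU lay above those of all other groups and the libraries of R848 below all others, while those of vehicle and PNPi+dG/rG overlapped. As means, the share was 0.627% ± 0.0204 (SD, n = 2) with vehicle, 0.833% ± 0.0426 with polyU, 0.648% ± 0.0244 for PNPi+dG/rG, 0.764% ± 0.0144 when polyU was added to it and 0.510% ± 0.0219 for R848. No test was made of this sum.

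**Figure D2:**
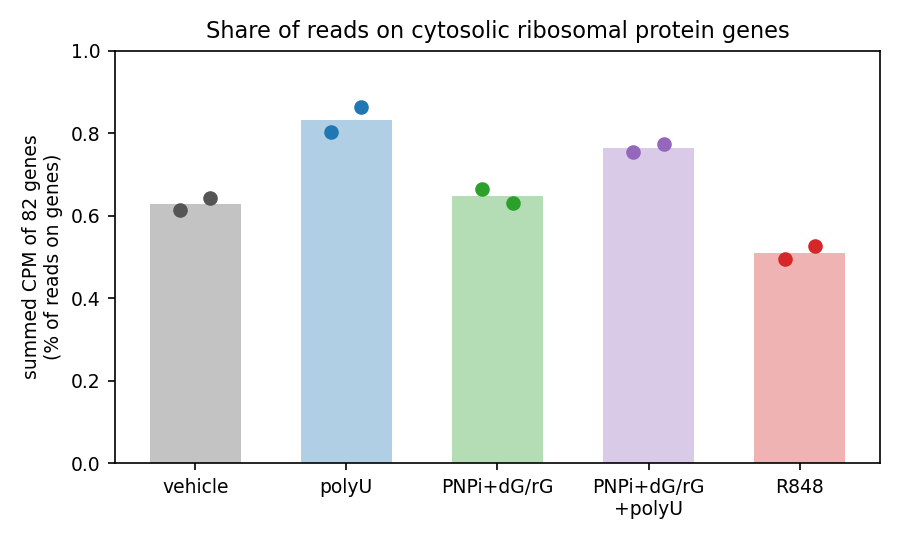
Summed CPM of the 82 genes as a percent of reads on genes, with 1 point for each library and a bar for the mean of the 2 libraries of a group. PolyU (0.833%) and PNPi+dG/rG+polyU (0.764%) lie above vehicle (0.627%), PNPi+dG/rG (0.648%) overlaps it, and R848 (0.510%) lies below.

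Genes were tested one by one with limma on log2 CPM across all 5 groups, and a gene was called at an adjusted p under 0.05 over 11978 genes, those that reached 1 CPM in 2 or more libraries. Of the 82 genes, 75 entered the test. The 7 that did not were Rpl3l, Rpl10l, Rpl23a, Rpl24, Rpl38, Rps16 and Rps29. Fold changes are differences of mean log2 CPM, with SE.

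Most of these genes were higher with polyU, by a modest amount. The labels name the carrier DOTAP only in the groups with polyU. Effects of the RNA and of the carrier therefore cannot be told apart where such a group is compared with vehicle or R848. Of the 75 genes, 50 were called higher and 0 lower than vehicle, where 20.6% of all genes tested were called higher and 18.7% lower. None of these calls reached 2-fold, where 385 of all 11978 genes tested were called at least 2-fold higher and 93 lower. At an unadjusted p under 0.05, limma gave 56 higher and 0 lower, against 24.4% and 22.4% of all genes. The median log2 fold change was 0.42, against 0.02 over all genes. By subunit, 27 of 43 large-subunit genes, all 3 stalk genes and 20 of 29 small-subunit genes rose. Both polyU libraries lay above both vehicle libraries in 63 of the 75 genes, a separation that 36.3% of all genes showed, and below in 0, against 32.1% of all genes. Nearly all of the calls were in abundant genes, with 48 of the 54 genes of at least 10 CPM but 2 of the 21 less abundant ones called. The size of the change was close in these sets, with medians of 0.44 and 0.40. The value was above 0 in all 54 abundant genes and in 19 of the 21 others. Shares of all genes called at these levels are not reported here.

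The acidic stalk, which brings elongation factors to the ribosome, shows the size of the change. Rplp0 measured 378 and 404 CPM with vehicle and 497 and 535 CPM with polyU, a log2 fold change of 0.40 ± 0.05 (limma adjusted p = 5.66e-06). Rplp1 went from 393 and 411 CPM to 535 and 606 CPM, with a log2 fold change of 0.50 ± 0.08 (limma adjusted p = 0.000838). Rplp2 had 113 and 137 CPM with vehicle and 164 and 192 CPM with polyU (0.51 ± 0.15, limma adjusted p = 0.033). In each of the 3 genes the libraries of the groups did not overlap.

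Other genes with known roles rose to a like extent. Rps3 rose from 509.6 and 525 CPM to 670.1 and 732 CPM (log2 0.44 ± 0.05, limma adjusted p = 3.44e-06). Rps14, which is lost on one chromosome in the 5q- form of myelodysplasia, had 132 and 143 CPM with vehicle and 206 and 232 CPM with polyU (0.67 ± 0.06, limma adjusted p = 2.39e-07). Rps19, the gene most often mutated in Diamond-Blackfan anaemia, had 94.6 and 101 CPM and then 125 and 136 CPM (0.41 ± 0.06, limma adjusted p = 0.000113). In all of these the polyU libraries lay clear of vehicle. The largest change was in Rpl30, a small protein of the large subunit, with 25.3 and 31.4 CPM under vehicle and 45.3 and 55.9 CPM under polyU, a log2 fold change of 0.84 ± 0.13 (limma adjusted p = 0.000245). Rpl12, which forms the base of the stalk, measured 11.4 and 14.7 CPM with vehicle and 12.8 and 13.1 CPM with polyU, so its libraries overlapped and its log2 fold change was 0.00 ± 0.13.

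PNPi+dG/rG without polyU gave no call among the 75 genes, where 0.409% of all genes were called higher and 0.392% lower by limma. At an unadjusted p under 0.05 there was 1 gene, Rpl22, which was named after its value was seen, with a log2 fold change of 0.12 ± 0.05, where 4.70% of all genes were higher and 4.28% lower at that level. The median log2 fold change was 0.05, against 0.02 over all genes. Among the 54 genes of at least 10 CPM, the median 95% interval of the log2 fold change ran from -0.12 to 0.19, and the intervals of all 54 lay between -0.38 and 0.57. Rpl4 had 815 and 804 CPM with vehicle and 813 and 793 CPM with PNPi+dG/rG, and Rplp0 had 413 and 405 CPM with PNPi+dG/rG. Both libraries of PNPi+dG/rG lay above both of vehicle in 10 genes and below in 4, where 23.8% and 18.8% of all genes did.

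With PNPi+dG/rG+polyU, 38 of the 75 genes were called higher than vehicle and 2 lower, where 22.2% of all genes were called higher and 46.7% lower. The median log2 fold change was 0.28, while the median over all genes was -0.22, so in CPM the ribosomal protein genes moved against the bulk of the transcriptome. After centring each library on its median gene, which sets the bulk near 0, these medians were 0.49 and -0.01. Both libraries lay above both vehicle libraries in 52 genes, as in 28.4% of all genes, and below in 6, as in 55.5% of all genes. The genes that rose were 19 of 43 in the large subunit, 2 of 3 in the stalk and 17 of 29 in the small subunit. None of the changes reached 2-fold, where 973 of all 11978 genes tested were called at least 2-fold higher and 1712 lower.

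The largest rise was in Rpl26, a protein at the exit tunnel that also binds p53 mRNA (chromosome 11, 68901583-68906989, plus strand). It measured 32.9 and 39.7 CPM with vehicle and 67.9 and 67.7 CPM with PNPi+dG/rG+polyU, well clear of each other, and its log2 fold change was 0.91 ± 0.10 (limma adjusted p = 2.18e-06). Rps20, in the head of the small subunit, had 48.4 and 60.1 CPM and then 85.4 and 89.5 CPM (0.70 ± 0.13, limma adjusted p = 0.0011). Rpl39, a very small protein that lines the exit tunnel, had 14.8 and 18.1 CPM and then 25.5 and 26.2 CPM (0.66 ± 0.11, limma adjusted p = 8.07e-05). Rps14 reached 215 and 211 CPM (0.64 ± 0.06, limma adjusted p = 8.82e-08). These 4 genes kept their direction with each library left out, and their direction and call under each scaling tried. A scaling shifts every gene of a comparison by the same amount. Here the shift was upward, so the scalings could not undo a rise.

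Rpl12 and Rpl15 went the other way. Rpl12 (chromosome 2, 32961559-32965345, plus strand) fell to 8.35 and 8.72 CPM from 11.4 and 14.7 CPM, a log2 fold change of -0.60 ± 0.13 (limma adjusted p = 0.000625). Rpl15, a core protein of the large subunit whose start carries the longest pyrimidine run shown above, had 22.1 and 18.04 CPM with vehicle and 16.4 and 17.0 CPM with PNPi+dG/rG+polyU. Its log2 fold change was -0.25 ± 0.11 (limma adjusted p = 0.0445), a call that was lost without any 1 of 5 libraries, where the value ran from -0.40 to -0.11, and that fell to -0.04 with libraries centred on their median. Of the 3 stalk genes, Rplp0 (477 and 475 CPM) and Rplp1 (470.2 and 506 CPM) were called higher, each with a log2 fold change of 0.28. Rplp2, at 143 and 154 CPM, had 0.26 ± 0.15 and was not called.

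**Figure D3:**
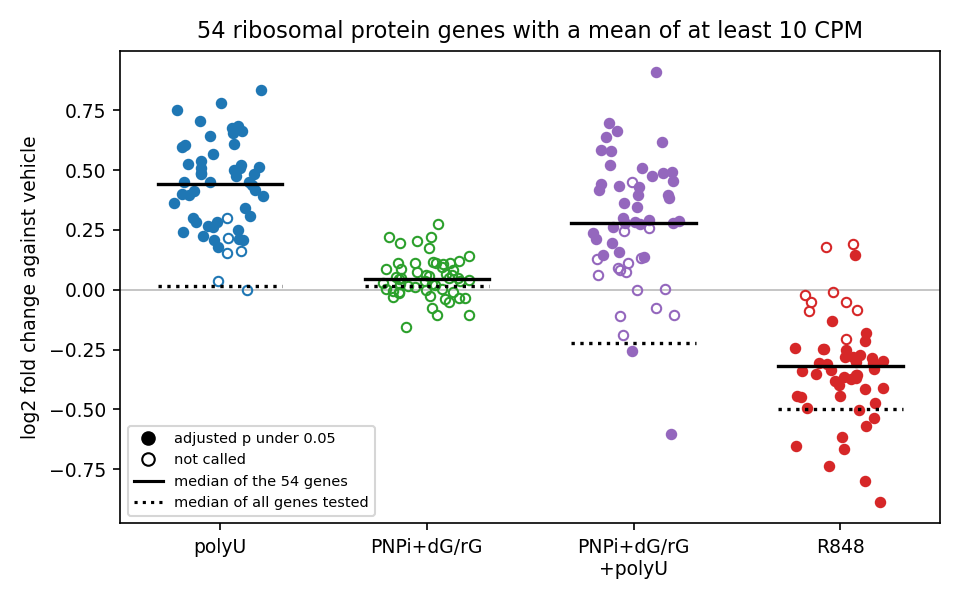
Log2 fold change against vehicle (vertical axis) of the 54 genes that averaged 10 CPM or more, with 1 point per gene, filled where limma's adjusted p was under 0.05. Solid lines are the median of these genes and dotted lines the median of all 11978 genes tested, which lies at 0.02 (polyU), -0.22 (PNPi+dG/rG+polyU) and -0.50 (R848), below the median of the ribosomal protein genes in each case but above some of them, such as Rpl12.

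R848 lowered most of these genes in CPM, and this direction depends on the scale. Of the 75 genes, 47 were called lower and 1 higher than vehicle, where 62.9% of all genes were called lower and 19.2% higher, so ribosomal protein genes were called lower about as often as genes in general. The median log2 fold change was -0.33, against -0.50 over all genes. After centring every library on its median gene, 44 were called higher and 2 lower, with a median of 0.27, where 43.0% of all genes were called higher and 34.6% lower. With totals taken over the 6415 genes that changed under 2-fold, 34 were called lower and 4 higher, with a median of -0.18, where 55.8% and 23.5% of all genes were. In CPM both R848 libraries lay below both vehicle libraries in 57 genes, as in 67.9% of all genes, and above in 5, as in 22.8%. Against vehicle, then, these mRNAs took a smaller part of the reads after R848, and a larger part than the median gene.

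The stalk genes show this. Rplp0 had 299 and 312 CPM with R848, below the 378 and 404 CPM of vehicle, with a log2 fold change of -0.36 ± 0.05 (limma adjusted p = 2.98e-06) that became 0.24 with centred libraries. Rplp1 had 314 and 349 CPM, a log2 fold change of -0.28 ± 0.08 (limma adjusted p = 0.00897) that became 0.31. Rplp2, at 111 and 129.7 CPM, overlapped vehicle (-0.05 ± 0.15), and was called higher at 0.54 when centred. Rpl4 fell to 653 and 665 CPM from 815 and 804 CPM in the deposited scale.

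The largest falls among genes of at least 10 CPM were in Rpl12, Rpl10a, Rpl3 and Rpl13. Rpl12 had 6.74 and 7.29 CPM with R848, a log2 fold change of -0.89 ± 0.13 (limma adjusted p = 9.93e-06) that stayed lower at -0.29 with centred libraries. Rpl10a, which forms the mobile L1 stalk, went from 19.8 and 24.7 CPM to 13.1 and 12.3 CPM (-0.80 ± 0.11, limma adjusted p = 4.1e-06), and its centred value of -0.21 was not called. Rpl3, beside the peptidyl transferase centre, went from 53.9 and 51.6 CPM to 32.3 and 31.0 CPM (-0.74 ± 0.07, limma adjusted p = 5.89e-08), and Rpl13 from 15.8 and 16.9 CPM to 9.82 and 10.8 CPM (-0.67 ± 0.12, limma adjusted p = 8.72e-05). Their centred values were -0.14 and -0.07, not called. For all 4 the R848 libraries lay below those of vehicle. Rpl22l1 was the 1 gene that fell at least 2-fold, where 3633 of all 11978 genes tested were called so, and is described with its paralog.

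Markers of other cell types also moved, most of all with R848. The 6 fibroblast markers summed to 103 and 109.9 CPM in the R848 libraries and to between 0.449 and 1.26 CPM in the other 8. Most of it was Col1a1, with 51.6 and 58.3 CPM, and Col1a2, with 40.9 and 40.2 CPM. The 6 neutrophil markers summed to 23.0 and 25.2 CPM with R848 and to 8.42 and 7.95 CPM with PNPi+dG/rG+polyU, against 2.92 and 3.54 CPM with vehicle. The R848 sum was mostly S100a8, so the list did not rise as a whole. S100a9 went the other way, from 1.178 and 1.461 CPM with vehicle to 0.0531 and 0 CPM with R848. The 5 endothelial markers summed to 64.5 and 69.8 CPM with R848, 143.1 and 143.5 CPM with PNPi+dG/rG+polyU and 246 and 239.6 CPM with vehicle. These sums were mostly Kdr and Vwf, and Pecam1 went the other way, from 0.337 and 0.0562 CPM with vehicle to 1.06 and 1.07 CPM with R848. The macrophage markers summed to 15550 and 15560 CPM with PNPi+dG/rG+polyU and 17880 and 18370 CPM with vehicle. Of these 10 genes, 3 were called higher and 6 lower with PNPi+dG/rG+polyU, where 22.2% of all genes were called higher and 46.7% lower. Cd14 rose from 466 and 482 CPM to 1061 and 1124 CPM, and Adgre1 from 1547 and 1629 CPM to 2462 and 2441 CPM. Mertk fell from 40.3 and 40.6 CPM to 9.84 and 8.16 CPM, and Csf1r from 2140 and 2206 CPM to 1455 and 1416 CPM. Gm42418, a gene that overlaps the ribosomal RNA locus, took 37144 and 16100 CPM in the R848 libraries and between 8686 and 26083 CPM in the others. Their part in the values of the ribosomal protein genes was not tested. With totals that leave out Gm42418 and mitochondrial genes, the calls against vehicle in either direction were 53 (polyU), 43 (PNPi+dG/rG+polyU) and 46 (R848). In the deposited scale they were 50, 40 and 48. The shares of all genes called with these totals are not reported here, and the counts are no test of that part.

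**Figure D4:**
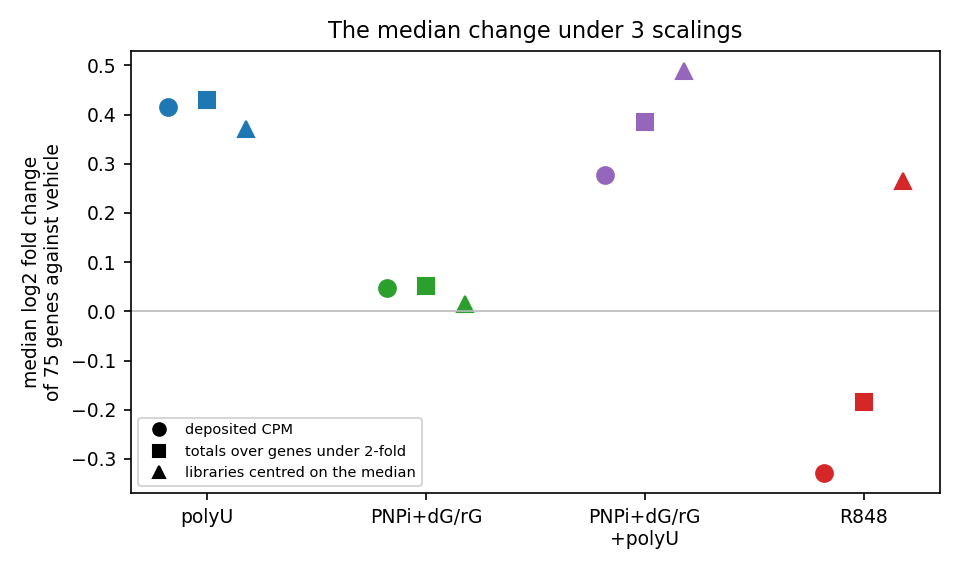
Median log2 fold change of the 75 genes against vehicle (vertical axis) in the deposited CPM (circles), with totals over the 6415 genes that changed under 2-fold (squares), and with libraries centred on their median gene (triangles). The median stays above 0 in all 3 for polyU, alone or with PNPi+dG/rG, and goes from -0.33 to 0.27 with R848.

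Between PNPi+dG/rG+polyU and polyU, the call also depends on the scale. In CPM, 21 of the 75 genes were called lower with PNPi+dG/rG+polyU and 0 higher, where 47.5% of all genes were called lower and 15.8% higher, and the median was -0.14 against -0.24 over all genes. An unadjusted p under 0.05 was reached by 29 genes, all lower, where 49.9% of all genes were lower and 16.8% higher. With libraries centred on their medians, 17 were called higher and 1, Rpl12, lower, with a median of 0.12, where 30.1% and 25.3% of all genes were. The count of calls in CPM ran from 7 without the first PNPi+dG/rG+polyU library to 26, and was 10 without the second polyU library. Both libraries of PNPi+dG/rG+polyU lay below both of polyU in 44 genes, as in 60.0% of all genes, and above in 2, as in 21.7%.

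The gene that differed most between these groups was Rpl12, with 12.8 and 13.1 CPM under polyU against 8.35 and 8.72 CPM under PNPi+dG/rG+polyU. Its log2 fold change of -0.60 ± 0.13 (limma adjusted p = 0.000757) stayed called under both other scalings. Rpl10a, at 26.8 and 27.0 CPM against 20.03 and 18.7 CPM, had -0.47 ± 0.11 (limma adjusted p = 0.00123). Rpl27a, at 22.3 and 21.1 CPM against 16.6 and 17.1 CPM, had -0.37 ± 0.10 (limma adjusted p = 0.00394). Rpl13a, which leaves the ribosome in interferon-γ–treated myeloid cells to silence inflammatory mRNAs, had 27.6 and 28.5 CPM against 22.6 and 21.5 CPM (-0.35 ± 0.09, limma adjusted p = 0.00258). The libraries did not overlap in these 3 genes, and none of the 3 was called with centred libraries. Rpl26, which rose with both treatments, had 58.7 and 65.8 CPM with polyU and was not called between them, with a log2 difference of 0.13 ± 0.10.

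The effect of PNPi+dG/rG in the presence of polyU minus its effect without polyU was tested as an interaction. In CPM it was called negative for 13 of the 75 genes and positive for 0, where 38.9% of all genes were called negative and 11.8% positive, and the median was -0.19 against -0.27 over all genes. At an unadjusted p under 0.05, limma gave 22 negative and 0 positive, against 43.8% and 13.1% of all genes. The count fell to 1 without the first PNPi+dG/rG library, to 2 without the first PNPi+dG/rG+polyU library and to 4 without the second polyU or the first vehicle library, and rose to 22 without the second vehicle library. With centred libraries the interaction was called positive for 8 genes and negative for 0, where 24.1% and 17.0% of all genes were.

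Most of these genes separated PNPi+dG/rG+polyU from R848. In CPM, 54 of the 75 were higher after PNPi+dG/rG+polyU by limma's call and 0 lower, where 53.9% of all genes were called higher and 16.9% lower, and the median log2 difference was 0.58 against 0.31 over all genes. At an unadjusted p under 0.05, limma gave 55 higher and 1 lower, against 55.3% and 17.5% of all genes. Both libraries of PNPi+dG/rG+polyU lay above both of R848 in 67 genes, as in 62.7% of all genes, and below in 2, as in 22.8%. With centred libraries 33 were called higher and 3 lower, with a median of 0.20, where 28.4% and 37.5% of all genes were.

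At least 2-fold differences were found in 6 genes, namely Rpl22l1, Rpl26, Rpl30, Rpl35, Rps18 and Rps20. Of all 11978 genes tested, 2019 were called at least 2-fold higher and 462 lower in this comparison. Rpl26 had 67.9 and 67.7 CPM against 27.3 and 31.2 CPM with R848, a log2 difference of 1.22 ± 0.10 (limma adjusted p = 1.25e-07). Rpl35, whose start carries a run of 11 pyrimidines, had 15.1 and 12.8 CPM against 5.52 and 7.99 CPM (1.07 ± 0.19, limma adjusted p = 0.000252). Rps20 had 85.4 and 89.5 CPM against 38.8 and 45.4 CPM (1.06 ± 0.13, limma adjusted p = 6.83e-05), and Rpl30 had 45.2 and 41.4 CPM against 19.8 and 22.6 CPM (1.03 ± 0.13, limma adjusted p = 1.39e-05). Rps18, which has a run of 9, had 63.6 and 62.1 CPM against 30.5 and 31.8 CPM, a log2 difference of 1.01. The libraries did not overlap in any of these genes, and Rpl26, Rpl35, Rps20 and Rpl30 were still called with centred libraries, between 0.65 and 0.83.

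The genes largely followed 1 order of groups in CPM. Of the 54 genes of at least 10 CPM, 45 had their highest mean in the polyU group and 6 in the PNPi+dG/rG+polyU group, and 50 had their lowest with R848. Among all 8459 genes of that level these shares were 26.4%, 13.5% and 59.5%. The order polyU, PNPi+dG/rG+polyU, vehicle, R848 held in 40 of the 54 genes and in 9.24% of all. The exceptions for the lowest group were Rpl15, lowest with PNPi+dG/rG+polyU, and Rpl5, Rpl7l1 and Rps25, lowest with vehicle. Of all 75 genes, 29 were called higher in both polyU groups and lower in the R848 group against the same vehicle libraries, 12 were called higher with polyU and lower with R848 alone, and 17 were called in none of these comparisons. Of all genes tested, 3.00%, 4.09% and 8.39% had these patterns. Since the 3 comparisons share their vehicle libraries, these counts are not independent of each other, and the R848 direction is that of CPM.

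**Figure D5:**
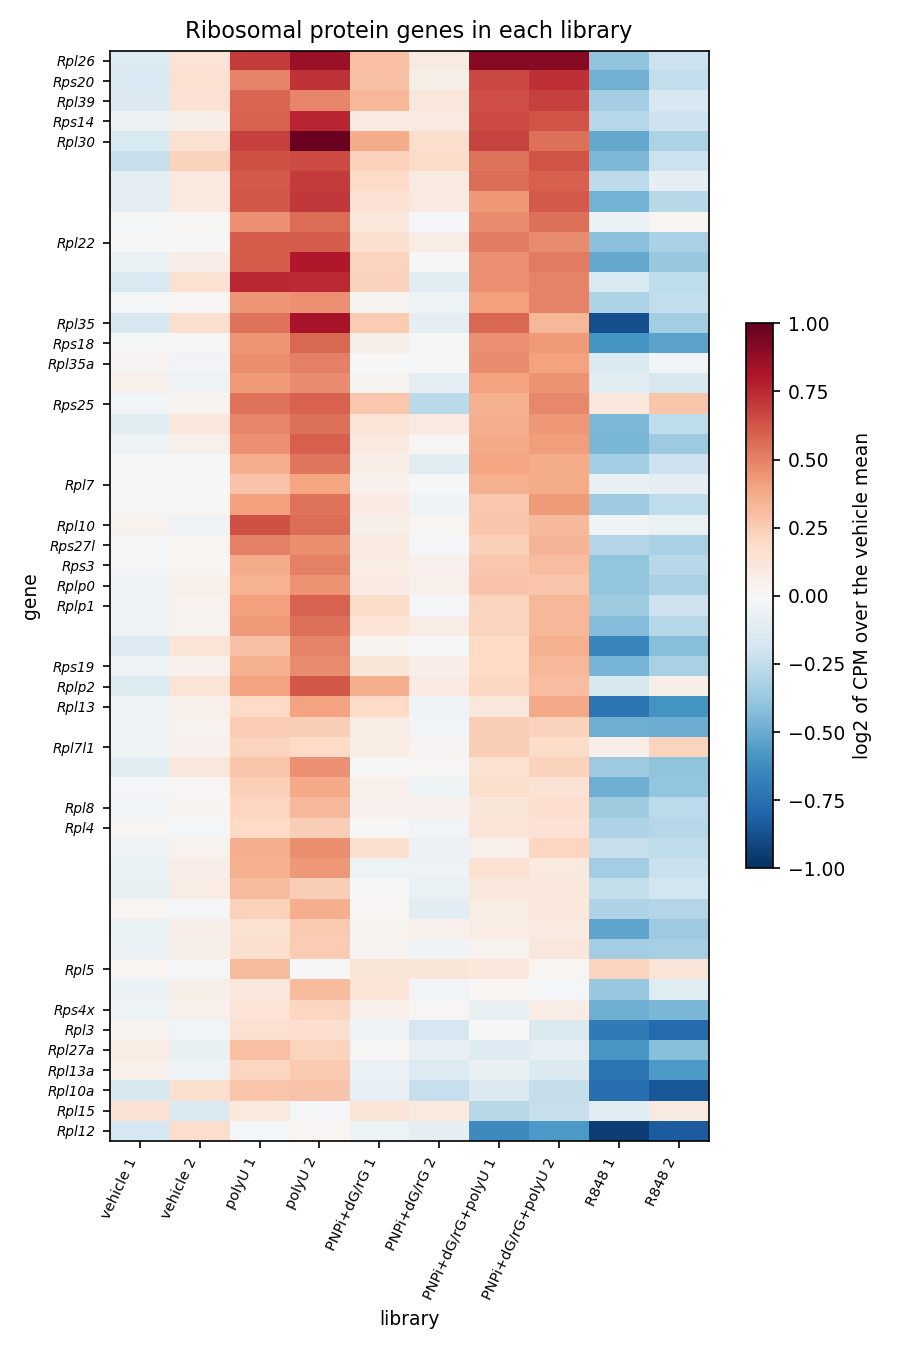
Log2 of CPM over the mean log2 of the vehicle libraries for the 54 genes of at least 10 CPM (rows, ordered by their change with PNPi+dG/rG+polyU) in each of the 10 libraries (columns), with red above and blue below vehicle and the symbol given for genes described by name. The polyU and PNPi+dG/rG+polyU libraries are red for most genes, the R848 libraries are blue for most, and Rpl12, Rpl15 and Rpl10a stand at the bottom.

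Genes with and without a pyrimidine run at the start had close medians, a difference that was not tested. The 12 tested genes with a C and a run of at least 5 pyrimidines had a median log2 fold change of 0.48 (polyU), 0.30 (PNPi+dG/rG+polyU) and -0.34 (R848). The 45 tested genes with a RefSeq promoter and no such run had 0.42, 0.28 and -0.33. Between PNPi+dG/rG+polyU and R848, the medians were 0.56 with a run and 0.58 without. Values differed widely within the first set, from Rpl35, at 0.68, 0.45 and -0.62, to Rpl15, at 0.04, -0.25 and -0.01. Rpl35a, with a run of 8 bases, had 0.48, 0.44 and -0.09.

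Several ribosomal proteins have a paralog, a second gene for a closely related protein. Rpl22, which binds viral and cellular RNAs and is dispensable in most tissues, had 118 and 119 CPM with vehicle, 180.2 and 181 CPM with polyU, 169 and 164 CPM with PNPi+dG/rG+polyU, and 88.9 and 94.6 CPM with R848. It was called higher by 0.61 and 0.49 and lower by limma, at -0.37 ± 0.05 (adjusted p = 3.63e-06), a value that became 0.22 with centred libraries. Rpl22l1, its paralog (chromosome 3, 28805436-28807424, plus strand), had 8.64 and 9.66 CPM with vehicle, 10.3 and 10.7 CPM with polyU and 10.6 and 11.7 CPM with PNPi+dG/rG+polyU, where it was not called. With R848 it measured 3.66 and 3.89 CPM, a log2 fold change of -1.28 ± 0.13 (limma adjusted p = 1.97e-07), and it stayed lower with centred libraries at -0.68. Rpl22l1 and Rpl12 were the 2 genes still called lower with R848 on that scale.

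Rpl7l1, a paralog of Rpl7 that acts in the making of the large subunit (chromosome 17, 46773907-46782672, minus strand), was the 1 gene called higher with R848 in CPM. It had 106 and 112 CPM with vehicle and 114 and 127 CPM with R848, a log2 fold change of 0.14 ± 0.06 (limma adjusted p = 0.0287) that was lost without the second R848 library or the first vehicle library. It rose by 0.21 with polyU, alone or with PNPi+dG/rG. Rpl7 itself had 137 and 138 CPM with vehicle, 168 and 181 CPM with polyU, and 130.2 and 129 CPM with R848, where its log2 fold change of -0.08 ± 0.05 was not called in CPM and was 0.51 with centred libraries. Rps27l, a p53 target, had 33.0 and 34.0 CPM with vehicle, 47.6 and 46.2 CPM with polyU (0.49 ± 0.07, limma adjusted p = 4.88e-05) and 27.3 and 26.7 CPM with R848 (-0.31 ± 0.07, limma adjusted p = 0.000715, and 0.28 centred). Per kb of transcript Rps27l had 63.6 CPM and Rps27 2.18 CPM, with 83.8% and 53.8% unique stretches. Rpl39l, a testis paralog, stayed between 0.617 and 1.25 CPM and was called in no comparison with vehicle in CPM, while its centred value of 0.93 with R848 was called.

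Rpl5 and Rpl11 bind the ribosomal 5S RNA and, when the ribosome is not assembled, the p53 ligase Mdm2. Rpl5 had 12.1 and 11.8 CPM with vehicle, 14.9 and 11.9 CPM with polyU, 12.9 and 12.1 CPM with PNPi+dG/rG+polyU, and 14.0 and 13.1 CPM with R848, and none of these differences was called in CPM. With centred libraries it was called higher with R848, at 0.77 in place of 0.18 ± 0.12, and with PNPi+dG/rG+polyU, at 0.27. Rpl11, at 3.48 and 4.83 CPM with vehicle and between 3.08 and 5.87 CPM in the treated libraries, was called in no comparison with vehicle in CPM, and with PNPi+dG/rG+polyU it was called at 0.54 on the centred scale. Rps27a, which is made as a fusion with ubiquitin, stayed between 3.72 and 5.35 CPM and was not called against vehicle in CPM. Rpl10, the protein placed last on the large subunit, rose with polyU from 11.3 and 10.8 CPM to 17.2 and 16.2 CPM (0.60 ± 0.10, limma adjusted p = 0.000236) and lay just under vehicle with R848, at 10.8 and 10.5 CPM (-0.05 ± 0.10, not called). Rps4x, from the X chromosome, rose by 0.18 with polyU, had 0.00 with PNPi+dG/rG+polyU and fell by 0.47 in CPM with R848, while its centred value of 0.12 was not called.

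Ribosomal proteins that the symbol rule misses gave similar values. Rack1, a scaffold on the small subunit, had 707 and 762 CPM with vehicle, 971 and 1050.5 CPM with polyU, 940.5 and 943.9 CPM with PNPi+dG/rG+polyU, and 538 and 572 CPM with R848. Its log2 fold changes were 0.46, 0.36 and -0.40, all called by limma, and the last became 0.19 with centred libraries. Rpsa was called higher after PNPi+dG/rG+polyU (0.46 ± 0.19, limma adjusted p = 0.048) and lower with R848 in CPM. Rpl36al, at 1.92 CPM or less in every library, was called lower with R848 at -1.32 in CPM, and neither Rpsa nor Rpl36al was called with R848 on the centred scale. Fau, made as a fusion with a ubiquitin-like protein, was not called against vehicle in CPM.

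Genes of the mitochondrial ribosome rose with polyU too, in 47 of 77 tested genes with 0 lower and a median of 0.28, where 20.6% of all genes rose by limma's call. With PNPi+dG/rG+polyU 23 were higher and 19 lower, and with R848 3 were higher and 62 lower in CPM, or 19 higher and 17 lower with centred libraries. Among all genes, 22.2% were higher and 46.7% lower after PNPi+dG/rG+polyU, while R848 gave 19.2% and 62.9%, or 43.0% and 34.6% after centring. The largest called changes with PNPi+dG/rG+polyU were Mrpl45 (0.87), Mrpl52 and Mrpl39 (0.84 each), and Mrpl23 (-1.44), Mrps35 (-0.78) and Mrps26 (-0.73). Mrpl52 (1.02), Mrpl45 (0.66) and Mrpl54 (0.31) were higher and Mrpl23 (-1.60), Mrps26 (-1.44) and Mrpl49 (-1.43) lower with R848, and these 6 kept direction and call on the centred scale. Centring shifts every gene upward in this comparison, so only the falls could have changed direction.

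Ribosome biogenesis factors, the nucleolar machinery that makes and folds ribosomal RNA, were called lower more often than higher in CPM. Of 45 genes, 5 were higher and 14 lower with polyU, 5 higher and 33 lower with PNPi+dG/rG+polyU, and 2 higher and 38 lower with R848 in CPM, where centring gave 16 higher and 15 lower. Among all genes, the shares called higher and lower were 20.6% and 18.7%, 22.2% and 46.7%, and 19.2% and 62.9% in the same order. With R848 after centring they were 43.0% and 34.6%. With PNPi+dG/rG+polyU the medians were -0.43 for these factors and 0.28 for the ribosomal proteins, both from the same libraries. With centred libraries these medians were -0.22 and 0.49. Rrp1b (-1.78), Polr1b, a core subunit of RNA polymerase I (-1.29), and Nolc1 (-1.14) fell the most. Sbds (1.02) and Eif6 (0.82), which both act on the new large subunit, and Rrs1 (0.23) rose the most. Sbds had 53.98 and 56.6 CPM with vehicle and 117 and 108 CPM with PNPi+dG/rG+polyU. With R848, Dkc1, the pseudouridine synthase of the H/ACA complex, had the largest fall, from 46.8 and 43.4 CPM to 11.6 and 9.37 CPM (-2.11, and -1.52 centred).

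Of 32 translation factors and other TOP mRNAs, 13 were higher and 5 lower with polyU, 10 higher and 13 lower with PNPi+dG/rG+polyU, and 2 higher and 23 lower with R848 in CPM, or 17 higher and 6 lower with centred libraries, beside 20.6% and 18.7%, 22.2% and 46.7%, 19.2% and 62.9%, and 43.0% and 34.6% of all genes. With PNPi+dG/rG+polyU the elongation factor subunit Eef1b2 (0.37), Snhg6 (0.33) and Eif3e (0.27) had the largest rises among the called genes, and Eif4b (-0.67), Snhg12 (-0.64) and Vim (-0.61) fell the most. With R848 the 2 that rose were Eif4ebp1, an inhibitor of cap-dependent translation (0.76), and the helicase Eif4a2 (0.14). Among 10 tested regulators of these mRNAs, Myc, a transcription factor that drives ribosome genes, had 114 and 117 CPM with vehicle, 83.4 and 71.3 CPM with polyU, 18.3 and 18.9 CPM with PNPi+dG/rG+polyU, and 14.9 and 14.8 CPM with R848. Its log2 fold changes were -0.58, -2.63 and -2.96, and on the centred scale -0.63, -2.42 and -2.36. Larp1, the TOP mRNA-binding protein, was called higher with R848 at 0.46 in CPM and 1.05 centred. It measured 318 and 310 CPM with vehicle, 277 and 278 CPM with polyU, 353 and 355 CPM with PNPi+dG/rG+polyU, and 423 and 440 CPM with R848.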

How the data were processed

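RNA of BMDMs in 5 groups with 2 libraries each was prepared with a stranded mRNA kit and sequenced as single 50 bp reads. Mapping was by STAR (2.27a in the submitters' processing notes) to GRCm38 with counting on Ensembl 97 genes, and the authors deposited CPM with an offset of 0.0001 on every value, normalized in Partek Flow. Base calls came from bcl2fastq 2.19.1.403. The rule for reads that map to several places or genes is not given in the sources used here. CPM fixes the total of a library, so a strong rise of some genes lowers the CPM of all others, and CPM holds no gene length.

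All 10 libraries were used, grouped by their labels. Library depth was recovered from the spacing of low values, 100% of which were whole multiples of that spacing within 0.1 read. limma 3.58.1 (R 4.3.3; trend, robust eBayes with statmod 1.5.0) was fitted to log2 of the deposited values of all 5 groups, with Benjamini-Hochberg adjustment over 11978 genes with 1 CPM or more in 2 libraries. It was tested on simulated data first. Lists of genes are described by counts and medians, without a test. Unique stretches came from GENCODE M21 transcripts, and per-kb levels use the longest transcript.

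Alternatives were other pseudocounts, filters, moderation, scalings and fits, a replicate block, and leaving out each library. Tests on read counts were left out, since an offset was added to the normalized values. Scalings by the genes that changed under 2-fold (without the ribosomal protein genes) and without Gm42418 and mitochondrial genes, and the share of nuclear protein-coding genes, were added after seeing the data.

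The genes, lists, tests and naming rule were chosen with earlier results of these data known. Named were the 4 called genes of at least 10 CPM that changed most upwards and downwards in the comparisons of PNPi+dG/rG+polyU with vehicle, polyU and R848 and of R848 with vehicle, genes with known roles and paralogs, genes called against the majority, and the 3 largest changes of each outside list. Rpl4, Rpl7a, Rpl8, Rpl24, Rpl35a, Rps18, Rps25, Larp1 and the genes not tested were named after their values were seen. Rps4l, also in the rule, is not annotated as protein-coding and was left out, and some single-gene values are not reported here. Plots and summaries were made in Python 3.11.15 with pandas 2.3.3 and matplotlib 3.10.9.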

Additional observations from a re-analysis of the deposited data

Results flagged for a closer look

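The effect of PNPi+dG/rG on log2 CPM differed by limma's interaction test between cells with and without polyU for 8 of the named ribosomal protein genes. The effect with polyU minus that without was -0.528 for Rpl12, -0.494 for Rpl30, -0.407 for Rpl15, -0.31 for Rplp1, -0.246 for Rps19, -0.231 for Rpl22, -0.21 for Rps3 and -0.181 for Rplp0. Limma's adjusted p lay between 0.0118 (Rpl22) and 0.0473 (Rplp1), and 38.9% of all genes tested were called in this direction. None of the 8 was called with centred libraries or with totals over the genes that changed under 2-fold.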

How the results depend on the processing

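The higher calls and medians of these genes with polyU, alone or with PNPi+dG/rG, against vehicle, and with PNPi+dG/rG+polyU against R848, kept their direction under every alternative that was run. The medians moved to 0.489 (PNPi+dG/rG+polyU against vehicle) and 0.1956 (against R848) with libraries centred on the median, and to 0.385 (against vehicle) with totals over genes under 2-fold. For PNPi+dG/rG+polyU against vehicle these scalings shift every gene upward, so they could not reverse a rise. The share differed by 0.1612 percentage points (polyU against vehicle) and 0.1914 (PNPi+dG/rG+polyU against R848) without the 3 most abundant genes, as fewer genes were summed.

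With centring, R848 against vehicle reversed to 46 calls (44 higher) and a median of 0.2656, PNPi+dG/rG+polyU against polyU to 18 calls and 0.115, and the interaction to 8 calls and 0.1022. In all, 48 of the 75 genes reversed with R848, 21 between PNPi+dG/rG+polyU and polyU, 4 between PNPi+dG/rG+polyU and R848 and 10 in the interaction, counting those called on either scale. Centring shifts every gene of a comparison by the same amount. A change opposite to that shift and smaller than it therefore reverses by arithmetic, and these reversals are not separate results. The share of all genes that reversed is not reported here. Among genes taken by role or size, those that reversed with R848 were Rplp0 (0.2381), Rplp1 (0.3133), Rplp2 (0.5442), Rps3 (0.2568), Rps19 (0.1976), Rps27a (0.5829), Rpl10 (0.5445), Rps4x (0.1211), Rpl22 (0.2234), Rps27l (0.2842), Rpl7 (0.5103) and Rpl39 (0.3417). Totals over genes under 2-fold gave -0.1846 for R848, 6 calls for PNPi+dG/rG+polyU against polyU and 1 for the interaction. Calls for PNPi+dG/rG+polyU against polyU were 11 with plain eBayes, 13 without a filter and 11 without moderation, and for the interaction 4, 4 and 2. The cause was not tested where the alternative does not itself rescale libraries or change the genes tested.

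Leaving out 1 library gave 39 to 51 calls for polyU and 31 to 41 for PNPi+dG/rG+polyU against vehicle, 36 to 50 for R848, 52 to 56 for PNPi+dG/rG+polyU against R848, 7 to 26 for PNPi+dG/rG+polyU against polyU and 1 to 22 for the interaction. PNPi+dG/rG gave 0 calls throughout. A lone library was taken to vary like the others.

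No pairing by replicate number was seen, as deviations of same-numbered libraries correlated between -0.286 and 0.109. With 2 libraries per group this cannot exclude pairing, and the labels do not say. With a replicate block the counts were 50, 0, 40, 49, 24, 54 and 16, against 50, 0, 40, 48, 21, 54 and 13, in the order polyU, PNPi+dG/rG, their combination and R848 against vehicle, the combination against polyU and against R848, and the interaction. The planned count models were not run. With 2 libraries per group, small changes of low genes were not detectable, and 7 genes stayed under the filter.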
